A study of Nicotiana benthamiana with 8 samples.

Results

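Contigs annotated as receptor-like or serine/threonine protein kinases were examined in leaves of Nicotiana benthamiana, a relative of tobacco, infiltrated with Agrobacterium. A contig was taken when its plant protein annotation contained the words receptor-like, receptor kinase, receptor protein kinase or serine/threonine-protein kinase. Of the 123 contigs found, 3 with the Arabidopsis symbol AT1G61590 were set aside for a separate list, and 0 had to be left out as phosphatases. This gave 120 contigs of the 3305 listed, with 61 different annotations and 50 Arabidopsis symbols, while 25 contigs had no symbol. Of them 50 were primary and 70 alternate contigs of the transcriptome, with lengths from 322 to 5990 bases and a median of 2159. The best database hit named a kinase or a receptor for 108 of them and neither for 12.

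In the MdMYB68 group, leaves of 4-week-old plants received bacteria with a plasmid that drives the apple transcription factor MdMYB68 as a GFP fusion under the 35S promoter, which is active in most plant cells. In the Empty vector group the same plasmid was used without the apple gene. Both groups also received bacteria carrying p19, a viral suppressor of gene silencing, so bacteria and p19 were common to all samples. RNA was taken 4 days after infiltration from 4 biological replicates per group, each a pool of 3 plants with 4 leaves per plant, and sequenced as 75 base-pair paired-end reads.

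Receptor-like kinases are membrane proteins with an outer part that binds a ligand, often built of leucine-rich repeats (LRR), and an inner protein kinase. Receptor-like cytoplasmic kinases lack the outer part and pass the signal on inside the cell, and receptor-like proteins have the outer part without a kinase. In the Arabidopsis endodermis, the root cell layer sealed by the Casparian strip, the receptor kinase GSO1 (also called SGN3) binds small peptides of the CIF family. It acts through the cytoplasmic kinase SGN1, the locus AT1G61590, on an NADPH oxidase whose products are used by peroxidases to build the strip.

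The libraries held 29371282 to 32279582 mapped reads with the Empty vector and 31244291 to 34080202 with MdMYB68. The 120 contigs took 0.134% ± 0.0212 (SD, n = 4) of the mapped reads in Empty vector leaves and 0.458% ± 0.0152 (SD, n = 4) in MdMYB68 leaves. Over all listed contigs the shares were 7.57% ± 0.851 and 18.0% ± 0.540 (SD, n = 4). The 58 listed contigs of leaf markers (light-harvesting proteins, photosystem subunits and the Rubisco small subunit) had reads in both groups and summed to between 26246 and 38121 reads per 1000000 mapped reads (RPM) in Empty vector leaves and between 6013 and 9326 in MdMYB68 leaves. All 58 had a negative fitted change, and 57 passed the test as lower. Their part in the kinase results was not tested, and in whole leaves a smaller number of cells of a type cannot be told apart from less RNA per cell.

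Levels are given as RPKM over all mapped reads, that is RPM per kilobase of contig, where the mapped reads of primary and alternate contigs are added up. The 2 groups were compared with edgeR's quasi-likelihood test on total gene reads, with adjustment over the 3305 contigs and a threshold of 0.001. Every listed contig had been selected by the authors on these same libraries, so a call here is a description of the list and not independent evidence. In the table the smallest ratio of the mean deposited RPKM was 4.00 and the smallest difference 5.01.

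Most of the kinase contigs were higher in leaves expressing MdMYB68. Of the 120, 103 (85.8%) were called higher and 12 (10.0%) lower, and 5 were not called. Over all 3305 contigs, 95.9% were called, 83.4% higher and 12.4% lower, so the shares among the kinase contigs were close to those of the whole list. Their median log2 ratio was 3.07, beside 3.35 for all listed contigs. The median of the contigs' mean levels was 0.903 RPKM with the Empty vector and 9.37 with MdMYB68. The mean in Empty vector leaves was below 1 RPKM for 61 contigs, and 56 contigs had ratios above 10, of which 11 were above 100. The groups did not overlap in any of the 120, nor in any listed contig (100%), which gives each the smallest exact two-sided permutation p of 4 libraries against 4, 0.029.

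The sign of many rises changed with the scaling. TMM and DESeq2's own size factors assume that most contigs are unchanged, which a list of selected contigs does not meet. A sign under them only places a contig against the listed contigs as a whole, and does not test its direction in the leaf. When TMM factors were computed on the listed contigs, which are mostly higher, the median log2 fold change of all listed contigs moved by 2.94, from 3.34 to 0.40. With TMM 29 kinase contigs were called higher and 19 lower, beside 29.2% and 18.5% of all listed contigs. With DESeq2's own size factors 38 were called higher and 25 lower, beside 37.1% and 22.7% of all listed contigs. The sign was positive in 63 of the 120 under both. In the further fits described after the results, the share of all listed contigs called higher was 84.9% with limma at a pseudocount of 1, 81.2% at 0.1, 83.9% with DESeq2 at fixed size factors, and 81.1% (without MdMYB68 replicate 3), 81.7% (without replicate 1), 81.9% (without replicate 2 or 4) and between 83.2% and 83.4% (without an Empty vector library). With the replicate number as a block it was 69.4%, and 9.71% were called lower. A contig below about 2.94 on the log2 scale in the following was thus higher relative to all mapped reads but had a change near or below 0 under these factors.

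**Figure D1:**
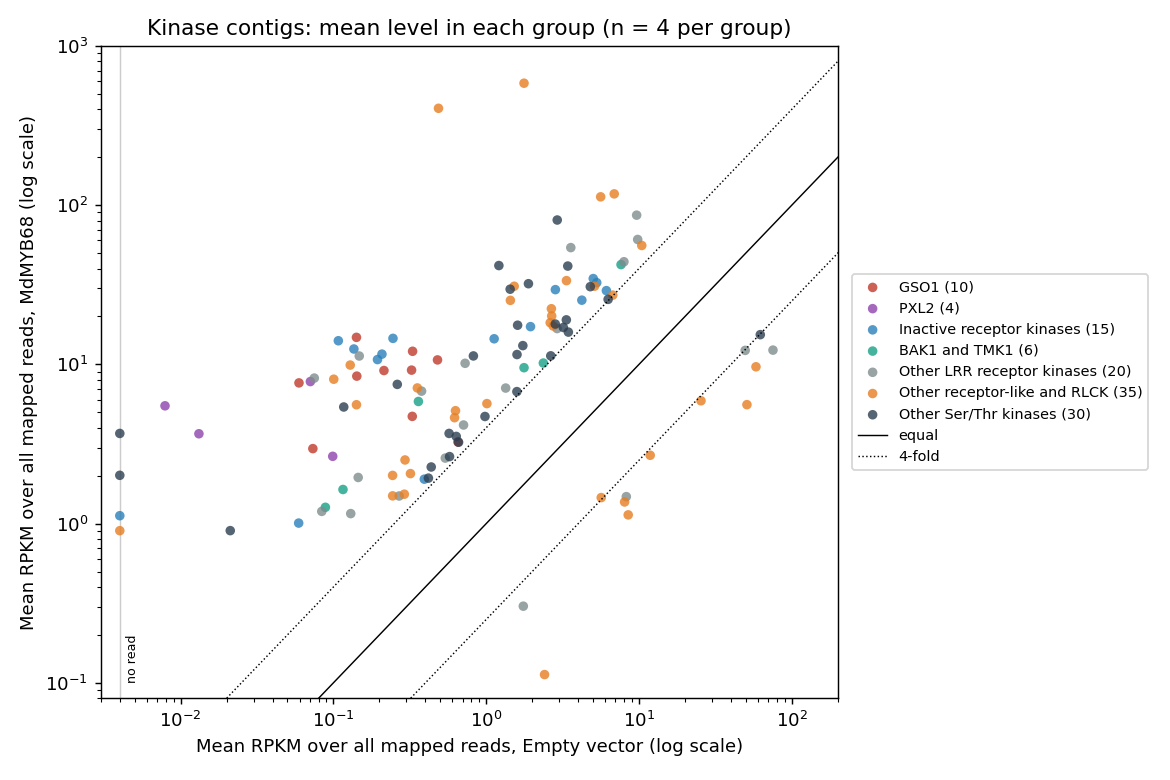
Mean level of each of the 120 kinase contigs in Empty vector leaves (x axis) and MdMYB68 leaves (y axis), in RPKM over all mapped reads on log scales, 4 libraries per group, coloured by class with the number of contigs. The solid line marks equal levels and the dotted lines a 4-fold difference. The 107 contigs above the solid line include 4 with no read in Empty vector leaves, drawn at the grey line, and 13 contigs lie below it.

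GSO1 was the receptor with the most contigs. All 10 contigs annotated as GSO1 were called higher, and the median of their log2 ratios was 5.27. Together they took 6.91, 9.85, 9.62 and 7.93 RPM in the Empty vector libraries and 161, 168, 181 and 185 in the MdMYB68 libraries. The means were 8.58 ± 1.40 and 174 ± 11.1 (SD, n = 4), a ratio of 20.3. Counting only reads placed on a single contig, the ratio of the sums was 52.8. The 10 contigs are 1 primary and 9 alternate contigs, and their median share of uniquely placed reads was 14.2%, so most of their reads also match another contig and the reads of single copies could not be separated.

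The primary GSO1 contig, Nbv5tr6203858 (3426 bases), had 100% uniquely placed reads. Its level was 0.209, 0.146, 0.0968 and 0.118 RPKM in Empty vector leaves and 7.46, 8.00, 7.91 and 10.4 RPKM in MdMYB68 leaves. All MdMYB68 libraries lay far above the Empty vector libraries, and the log2 fold change was 5.88 ± 0.25 (SE, adjusted p = 5.4e-09). The short alternate contig Nbv5tr6252123 (574 bases, 99.8% unique) had the highest GSO1 level, 15.3, 14.4, 14.8 and 14.6 RPKM with MdMYB68. It stood at 0.119, 0.0545, 0.231 and 0.162 RPKM with the Empty vector, a log2 fold change of 6.64 ± 0.33 (adjusted p = 1.8e-08). The 2 contigs with the clearest assignment of reads thus rose 59.7-fold and 105-fold. Nbv5tr6252123 carries no Arabidopsis symbol, however, and its best hit is only a leucine-rich repeat-like protein. The same holds for Nbv5tr6409128 below, so the name GSO1 is less certain for both.

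The long alternate GSO1 contigs shared most of their reads. Nbv5tr6341658 (22.5% unique) rose from 0.325 ± 0.0961 to 9.20 ± 0.902 RPKM, Nbv5tr6390754 (14.9% unique) from 0.480 ± 0.195 to 10.7 ± 0.608 and Nbv5tr6390755 (10.6% unique) from 0.328 ± 0.0651 to 4.71 ± 0.685 (SD, n = 4). Their log2 fold changes were 4.82, 4.47 and 3.84, and 5.60, 5.63 and 4.93 with uniquely placed reads. Nbv5tr6289899 (13.5% unique) rose least. It had 0.470, 0.918, 0.916 and 0.310 RPKM in Empty vector leaves and 2.85, 2.74, 2.89 and 4.55 in MdMYB68 leaves, and its log2 fold change of 2.32 ± 0.36 (adjusted p = 9.1e-05) turned to -0.63 under TMM factors and -0.60 under DESeq2's own. With uniquely placed reads it was 4.75. The fold changes of these long alternate contigs were therefore larger where only unambiguous reads were counted, unlike those of some shorter ones below.

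The shorter GSO1 contigs had few reads in Empty vector leaves. Nbv5tr6254322 (715 bases, no uniquely placed read) had 5 reads, all in Empty vector replicate 1, against 6.44, 6.73, 7.97 and 9.46 RPKM in the MdMYB68 libraries. The log2 fold change was 6.94 ± 0.72 (adjusted p = 4e-06). Without that replicate no Empty vector read is left, and the level was at least 172-fold higher, taking 3 reads in the whole group as the limit of detection. Nbv5tr6409128 (324 bases, 46.1% unique) rose by 5.16 ± 0.55 on the log2 scale (adjusted p = 5.3e-06), or 6.09 without Empty vector replicate 3, which held its highest level of that group. The remaining GSO1 contigs, Nbv5tr6412539 (13.1% unique) and Nbv5tr6408139 (6.77% unique), named here after their values were seen, rose by 5.38 and 5.25, or 6.48 without Empty vector replicate 2 and 5.93 without Empty vector replicate 4. With uniquely placed reads the log2 fold changes were smaller, at 4.90 for Nbv5tr6409128, 4.14 for Nbv5tr6412539 and 3.23 for Nbv5tr6408139. The last was then not called (edgeR, adjusted p = 4.7e-03).

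PXL2 was the class with the largest median ratio. PXL2 is a close relative of PXY, the Arabidopsis receptor of the TDIF peptide in the vascular cambium. All 4 contigs annotated as PXL2 (symbol AT4G28650, all alternate) were called higher, with a median log2 ratio of 7.43. Together they had 0.511, 0.813, 0.265 and 0.682 RPM in the Empty vector libraries and 63.8, 60.9, 64.1 and 52.0 in the MdMYB68 libraries, a ratio of 106. With uniquely placed reads it was 361, but the Empty vector libraries then had 0.0681, 0, 0 and 0.124 RPM, so its size rests on few reads. By contig, the log2 fold change with uniquely placed reads was smaller than with total gene reads in Nbv5tr6332501 (8.03) and Nbv5tr6332500 (7.19). It was larger in Nbv5tr6284444 (8.27) and Nbv5tr6332499 (8.33).

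Nbv5tr6284444 (3341 bases, 42.6% unique) had the highest PXL2 level. In Empty vector leaves it was 0.153, 0, 0 and 0.130 RPKM, in MdMYB68 leaves 8.21, 6.96, 9.10 and 6.94 RPKM. The log2 fold change was 6.77 ± 0.65 (adjusted p = 2.2e-06), and 7.43 without Empty vector replicate 1. Nbv5tr6332501 (19.4% unique) had 3 reads in Empty vector leaves, all in replicate 4, and 6.29, 6.25, 5.60 and 3.83 RPKM with MdMYB68. The ratio of the read rates was 667 with a 95% counting interval from 228 to 3237, the log2 fold change 9.17 ± 0.56 (adjusted p = 7.3e-08), and without that library the ratio was at least 493. Nbv5tr6332500 (16.3% unique) had 5 reads in the same library only, and 3.49, 3.87, 3.38 and 3.93 RPKM with MdMYB68. It rose by 7.93 ± 0.64 on the log2 scale (adjusted p = 5.8e-07), and without Empty vector replicate 4 its level was at least 329-fold higher. In all 3 contigs the Empty vector libraries were at or next to zero and the size of the ratio depends on a few reads. The remaining PXL2 contig, Nbv5tr6332499 (17.0% unique, outside the naming rule), rose from 0.0990 ± 0.141 to 2.65 ± 0.308 RPKM (SD, n = 4). Its log2 fold change was 4.71, but 6.30 without Empty vector replicate 2, and it lost its call in 2 of the 8 fits that left out a library.

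**Figure D2:**
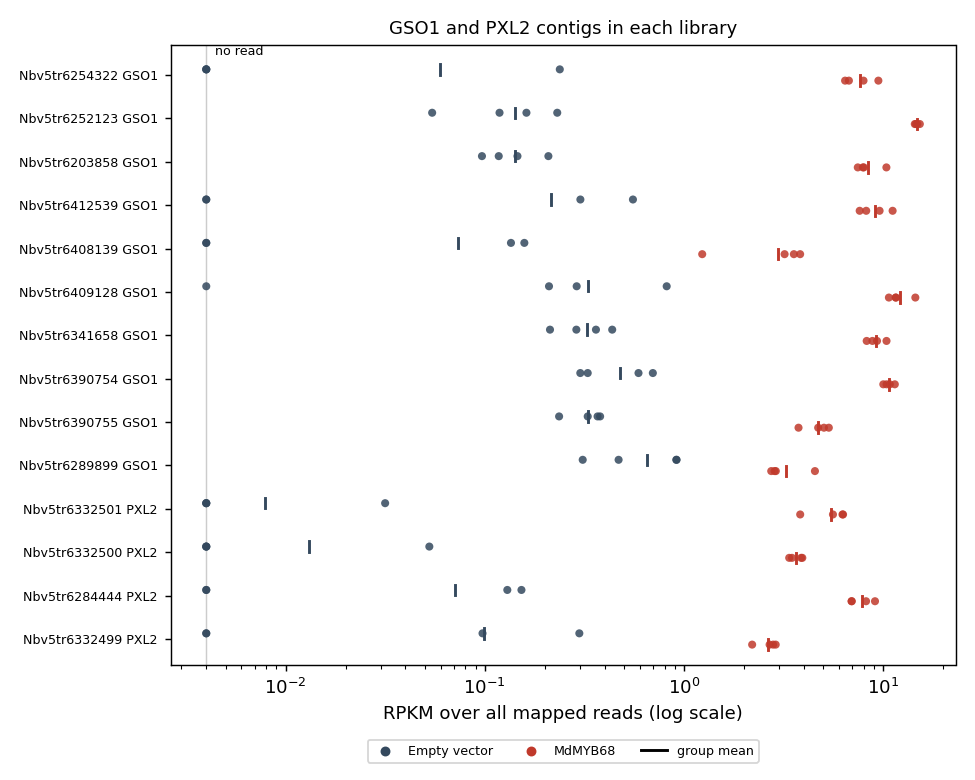
Level of the 10 GSO1 and 4 PXL2 contigs in each library, in RPKM over all mapped reads on a log scale, with points for Empty vector (dark) and MdMYB68 (red) libraries and bars for the group means of 4 libraries. Libraries with no read are drawn on the grey line, where several points can coincide. In each contig the MdMYB68 libraries lie above all Empty vector libraries, from 6.44 to 9.46 against 0 to 0.238 RPKM in Nbv5tr6254322 at the top.

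Receptors annotated as inactive kinases formed a class of 15 contigs. Such proteins have an LRR outer part and a kinase fold that lacks residues needed for catalysis. All 15 were called higher (median log2 ratio 3.72), and 10 kept a positive sign under TMM and DESeq2 factors. Their sum was 56.1 ± 2.75 RPM with the Empty vector and 442 ± 9.85 with MdMYB68 (SD, n = 4).

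Nbv5tr6244534 (symbol AT1G50610, a pollen receptor kinase in Arabidopsis, 100% unique) had 0.293, 0, 0.0713 and 0.0666 RPKM in Empty vector leaves and 14.1, 14.4, 16.6 and 11.2 RPKM in MdMYB68 leaves. It rose by 6.96 ± 0.53 on the log2 scale (adjusted p = 3.9e-07), and 8.03 without Empty vector replicate 1, which held the highest level of its group. Nbv5tr6202059 (AT2G26730, 100% unique) had 0.212, 0.130, 0.138 and 0.0644 RPKM against 12.4, 12.8, 12.3 and 12.5 RPKM, a log2 fold change of 6.49 ± 0.29 (adjusted p = 9e-09). The 3 contigs with the symbols AT3G42880 and AT1G50610 had a median log2 ratio of 5.88. They kept a positive sign under TMM and DESeq2 factors.

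The inactive kinase At4g23740 had 4 contigs, and the median of their log2 ratios was 2.96. Their sum was 27.0 ± 2.37 RPM in Empty vector leaves and 197 ± 8.54 in MdMYB68 leaves (SD, n = 4). Nbv5tr6329299 (25.0% unique) had 4.89, 4.73, 4.77 and 5.68 RPKM in Empty vector leaves and 33.6, 36.2, 36.1 and 32.4 in MdMYB68 leaves. The log2 fold change was 2.78 ± 0.11 (adjusted p = 3.3e-09), but -0.17 under TMM and -0.14 under DESeq2 factors. Nbv5tr6422167 (5.48% unique) rose by 2.62 ± 0.19 on the log2 scale (adjusted p = 3.1e-07), but had -0.33 and -0.30 under these factors. Nbv5tr6420194 (91.3% unique), the copy with most unambiguous reads, went from 2.84 ± 0.723 to 29.5 ± 1.30 RPKM (SD, n = 4), a log2 fold change of 3.38 ± 0.18 (adjusted p = 2.5e-08). It kept its sign under both, at 0.43 and 0.45.

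BAK1, the common co-receptor of LRR receptors such as the brassinosteroid receptor, and the TMK receptor kinases, linked to auxin responses in Arabidopsis, made up 6 contigs. All 6 were called higher (median log2 ratio 3.14), but 3 kept a positive sign under TMM and DESeq2 factors. The TMK1 contig Nbv5tr6246394 (82.4% unique) was the most abundant, at 6.93, 7.51, 8.05 and 8.02 RPKM in Empty vector leaves and 42.6, 40.7, 46.0 and 40.0 in MdMYB68 leaves. Replicates were close within each group, and the log2 fold change was 2.47 ± 0.10 (adjusted p = 5.8e-09), but -0.48 under TMM and -0.46 under DESeq2 factors. Nbv5tr6212922 (38.6% unique) and Nbv5tr6212921 (44.0% unique) are annotated TMK1 too, but carry the symbol AT3G23750, the locus of another TMK kinase in Arabidopsis. They rose by 2.43 ± 0.15 (adjusted p = 7.3e-08) and 2.11 ± 0.16 (adjusted p = 3.8e-07). The values were -0.52 and -0.84 under TMM and -0.50 and -0.82 under DESeq2 factors. The remaining contig annotated TMK1, Nbv5tr6268332 (5.73% unique), was low in Empty vector leaves, at 0.264, 0.171, 0.382 and 0.624 RPKM, and reached 6.49, 5.28, 7.33 and 4.30 RPKM. Its log2 fold change of 4.01 ± 0.37 (adjusted p = 1.7e-06) kept its sign at 1.05 and 1.09. The BAK1 contig Nbv5tr6422654 (665 bases, no uniquely placed read) had 0.205, 0, 0.150 and 0 RPKM against 1.33, 0.971, 1.88 and 0.887 RPKM. It rose by 3.80 ± 0.63 on the log2 scale (adjusted p = 0.00016), or 4.56 without Empty vector replicate 1. The other BAK1 contig, Nbv5tr6361701, rose by 3.80, or 4.39 without Empty vector replicate 3, and lost its call in 1 of the 8 fits that left out a library. Neither BAK1 contig had a uniquely placed read, so these values could belong to another somatic embryogenesis receptor kinase with the same sequence.

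The other LRR receptor kinases, 20 contigs, moved in both directions. In this class 15 were called higher and 4 lower, and 1 was not called, with a median log2 ratio of 2.58. Because the lower contigs were abundant, the sum of the class changed little, from 439 ± 63.8 to 713 ± 22.0 RPM (SD, n = 4), a ratio of 1.63.

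The most abundant riser was Nbv5tr6231526 (AT3G05990, annotated At2g14440, 100% unique), with 11.5, 8.61, 8.78 and 9.74 RPKM in Empty vector leaves and 81.7, 83.2, 94.0 and 87.3 RPKM in MdMYB68 leaves. The log2 fold change was 3.16 ± 0.13 (adjusted p = 4.3e-09), and 0.21 and 0.24 under TMM and DESeq2 factors. Nbv5tr6233702 (annotated At4g37250, 100% unique) had 10.4, 9.13, 9.83 and 9.88 RPKM against 58.4, 61.2, 63.0 and 60.9 RPKM. It rose by 2.63 ± 0.10 on the log2 scale (adjusted p = 2.3e-09), but had -0.32 and -0.29 under these factors. The steepest were 2 short contigs. Nbv5tr6246733 (AT1G08590, 322 bases, 100% unique) had 3 reads in Empty vector leaves, in replicates 1 and 2, and 4.60, 8.93, 9.44 and 9.83 RPKM in MdMYB68 leaves. The ratio was 109 with a 95% counting interval from 37.0 to 532, and the log2 fold change 6.55 ± 0.58 (adjusted p = 1.2e-06), or 7.48 without Empty vector replicate 2. Nbv5tr6218415 (AT3G47580, 451 bases, 100% unique) had 0.0755, 0, 0.515 and 0 RPKM against 9.65, 10.4, 10.3 and 14.8 RPKM. This was a rise of 6.21 ± 0.70 on the log2 scale (adjusted p = 7.7e-06), and 8.44 without Empty vector replicate 3, where most of its Empty vector reads lay.

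The class of other receptor-like kinases, receptor-like proteins and cytoplasmic kinases held 35 contigs, of which 26 were called higher and 7 lower, and 2 were not called. Its median log2 ratio was 2.90. It took 39.6% of the kinase reads in MdMYB68 leaves. The 2 most abundant of all kinase contigs were in it, but their identity is uncertain. Nbv5tr6227836 (628 bases, 98.4% unique) and Nbv5tr6228973 (723 bases, 86.5% unique) are annotated after a putative receptor-like protein kinase of Solanum demissum, a wild potato, while their best hit is an RNA-binding protein 12-like entry.

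Nbv5tr6227836 had 1.19, 3.43, 1.16 and 1.28 RPKM in Empty vector leaves and 599, 629.9, 600.3 and 504 RPKM in MdMYB68 leaves, a log2 fold change of 8.35 ± 0.36 (adjusted p = 6.5e-09). Nbv5tr6228973 had 0.188, 0.432, 0.642 and 0.686 RPKM against 367, 403, 425 and 428 RPKM, a log2 fold change of 9.68 ± 0.27 (adjusted p = 5e-10). Both stood far above the control in every library, with ratios of 327 and 825. Together they held 14.4% of all kinase reads in MdMYB68 leaves, and the share of kinase reads given above includes them.

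Cytoplasmic kinases annotated as At5g01020 carry the symbol AT2G05940, which is RIPK in Arabidopsis, a kinase of the same subfamily as SGN1 that acts in immune signalling. All 6 were called higher (median log2 ratio 4.84), and all 6 kept a positive sign under TMM and DESeq2 factors. Their sum was 32.0, 14.8, 19.3 and 24.0 RPM in the Empty vector libraries and 402, 443, 466 and 479 in the MdMYB68 libraries, a ratio of 19.9. The most abundant, Nbv5tr6200150 (45.6% unique), had 10.2, 3.61, 6.82 and 6.93 RPKM against 108, 115, 118 and 130.1 RPKM. It rose by 4.10 ± 0.28 on the log2 scale (adjusted p = 1.6e-07), and by 1.15 under TMM factors, where it did not pass (adjusted p = 0.0026). In Empty vector leaves replicate 1 was highest, and in MdMYB68 leaves the libraries differed little. Of the 6, 4 had no uniquely placed read, so the rise of single copies among them could not be separated.

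Annotated as proline-rich receptor-like kinases (PERK) were 5 contigs, but none had such a best hit. The best hit of Nbv5tr6221322, Nbv5tr6221323 and Nbv5tr6221324 was a pto-interacting protein, and that of Nbv5tr6295624 and Nbv5tr6271223 a kinase with an adenine nucleotide alpha hydrolase domain, so the name is uncertain. All 5 were called higher, but Nbv5tr6295624, without a uniquely placed read, lost its call in 5 of the 8 fits that left out a library (edgeR, adjusted p up to 2.8e-03). Their median log2 ratio was 3.06, and 3 kept a positive sign under TMM and DESeq2 factors. Their sum rose from 20.5 ± 1.39 to 216 ± 8.44 RPM (SD, n = 4). The 5 contigs annotated At4g25390 or At2g45590 were called higher too, with a median log2 ratio of 3.04.

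Other serine/threonine kinases, whose annotation does not name a receptor, made up 30 contigs, with 27 called higher and 1 lower, and 2 not called. Their median log2 ratio was 2.68 and 12 had a positive sign under TMM and DESeq2 factors. The class holds kinases of several signalling pathways. The contigs with no Empty vector read, Nbv5tr6380275 (AT1G11390, annotated abkC) and Nbv5tr6256750 (IRE1A), were copies without any uniquely placed read. Nbv5tr6380275 reached 2.56, 4.96, 1.98 and 5.24 RPKM in MdMYB68 leaves, at least 377-fold higher with the same limit of 3 reads. IRE1A, a sensor of unfolded proteins in the endoplasmic reticulum (annotated as the kinase ppk4), had 2.40, 3.03, 1.49 and 1.12 RPKM in Nbv5tr6256750, at least 158-fold higher. When all contigs of a gene were summed the ratios were much smaller. The 2 IRE1A contigs together had 2.24 ± 0.462 RPM in Empty vector leaves and 15.7 ± 2.00 in MdMYB68 leaves (SD, n = 4), a ratio of 7.03. The 2 AT1G11390 contigs together had a ratio of 18.2.

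Nbv5tr6386925 (AT4G33080, 28.3% unique), a kinase of the AGC family annotated as 38-like, had the highest level of the class. It had 3.63, 2.19, 3.14 and 2.70 RPKM in Empty vector leaves and 81.6, 83.3, 87.6 and 70.2 in MdMYB68 leaves, and rose by 4.79 ± 0.18 on the log2 scale (adjusted p = 2.4e-09). Nbv5tr6237659 (AT1G74330, annotated At1g54610, 99.8% unique) had 1.36, 1.14, 1.22 and 1.13 RPKM against 42.2, 41.5, 45.0 and 38.3 RPKM. This was a rise of 5.11 ± 0.12 on the log2 scale (adjusted p = 2.8e-10). Both kept their direction under TMM factors, at 1.83 and 2.15. Nbv5tr6299581 and Nbv5tr6299582 carry the symbol AT4G33080 too but had no uniquely placed read, and are named here after their values were seen. They rose by 2.92 and 2.86 on the log2 scale, but had -0.03 and -0.10 under TMM factors. In Empty vector leaves they held 1284 and 1179 reads, against 666 for Nbv5tr6386925. The 3 CRK1 contigs, kinases related to the calcium-dependent protein kinases, were called higher at a median of 3.59 on the log2 scale. Their sum went from 25.7 ± 1.49 to 278 ± 18.9 RPM (SD, n = 4). Of these CRK1 contigs, 2 kept a positive sign under TMM and DESeq2 factors, but were only 5.27% and 6.05% unique. Nbv5tr6397301 (38.3% unique) rose by 2.68, but had -0.28 and -0.25 under these factors.

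CTR1 holds back the ethylene response, and the log2 ratios of the 3 contigs annotated so, of which Nbv5tr6398398 carries the symbol AT4G24480, had a median of 2.28. SRK2E, known as OST1 in Arabidopsis, acts in abscisic acid signalling of guard cells, and the median of its 2 contigs was 2.25. All 5 were called higher relative to all mapped reads, but had a negative sign under TMM and DESeq2 factors. The SRK2E contig Nbv5tr6403521 (0.607% unique) was not called with uniquely placed reads, at 0.43 on the log2 scale (edgeR, adjusted p = 0.86). Of the 5 contigs of kinases that work with calcium sensors of the CBL family, 4 were called higher. Of these 4, Nbv5tr6377224 (1.66% unique) was not called in 5 of the 8 fits that left out a library, and its log2 fold change of 4.81 became 6.76 without Empty vector replicate 4. The median over the 5 was 2.66 on the log2 scale, and 1 kept a positive sign under those factors.

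**Figure D3:**
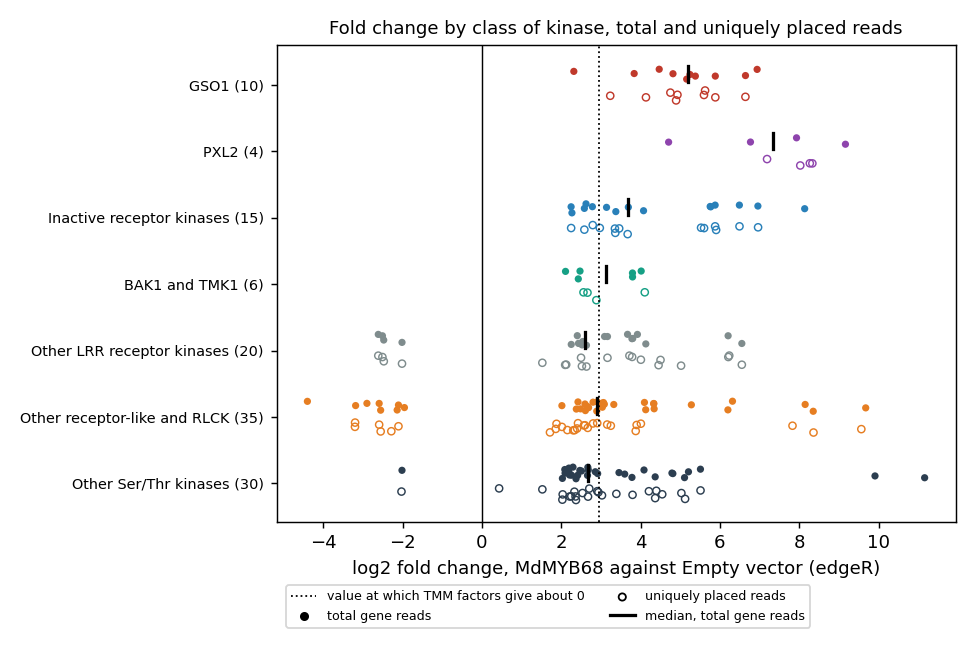
Log2 fold change of each kinase contig from edgeR (x axis), MdMYB68 against Empty vector, by class with the number of contigs. Filled points are from total gene reads, open points from uniquely placed reads where there were any, and black bars are class medians of the filled points. The dotted line lies at 2.94, near which TMM factors give a change of 0, and the GSO1 and PXL2 contigs lie right of it except 1 GSO1 contig at 2.32.

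Receptors and receptor-like proteins made up most of the contigs that were lower in leaves expressing MdMYB68. A negative fitted change was found for 13 contigs, 12 of them called, and all 13 stayed negative under TMM and DESeq2 factors. Of the 13, 1 belongs to the class of other serine/threonine kinases, which was set by the words of the annotation alone. Together they had 1188, 738, 814 and 917 RPM in the Empty vector libraries and 151, 189, 156 and 165 in the MdMYB68 libraries, a fall of 5.53-fold. Empty vector replicate 1 was the highest library of the group, but the other 3 lay well above all MdMYB68 libraries. Their median share of uniquely placed reads was 100%, beside 29.2% for the 107 with a positive change.

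The most abundant was Nbv5tr6201969, annotated as GSO2, the relative of GSO1. The Arabidopsis locus paired with it in the table, AT2G34930, is not that of GSO2, so the name is uncertain. It had 102.5, 52.4, 67.5 and 78.7 RPKM in Empty vector leaves and 10.5, 15.1, 10.8 and 12.8 RPKM in MdMYB68 leaves, with 100% uniquely placed reads. The log2 fold change was -2.61 ± 0.22 (adjusted p = 7.6e-07). This contig thus fell where all 10 GSO1 contigs rose.

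Receptor-like protein 12 was represented by 2 contigs, Nbv5tr6222771 (symbol RLP53, 30.5% unique) and Nbv5tr6246005 (RLP33, 44.5% unique). Nbv5tr6222771 had 72.3, 40.3, 43.3 and 47.6 RPKM in Empty vector leaves and 5.01, 6.65, 5.68 and 5.01 in MdMYB68 leaves, a log2 fold change of -3.19 ± 0.21 (adjusted p = 1.2e-07). Nbv5tr6246005 had 16.2, 8.90, 9.87 and 12.4 RPKM against 2.81, 3.14, 2.35 and 2.44 RPKM, a log2 fold change of -2.14 ± 0.20 (adjusted p = 2e-06). Both fell in every library, and uniquely placed reads gave -3.20 and -2.29.

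Lectin receptor kinases carry an outer domain that resembles sugar-binding proteins. Nbv5tr6217402 (L-type lectin receptor kinase IV.1, 100% unique) had 88.3, 46.3, 42.2 and 56.3 RPKM in Empty vector leaves and 8.32, 12.03, 8.79 and 9.49 in MdMYB68 leaves. Its log2 fold change was -2.59 ± 0.24 (adjusted p = 1.9e-06). The ZmPK1-like contig Nbv5tr6238020 (100% unique), whose namesake is a maize S-receptor-like kinase, had 36.0, 21.2, 22.0 and 22.5 RPKM against 6.26, 5.62, 6.24 and 5.50 RPKM. It fell by 2.11 ± 0.21 on the log2 scale (adjusted p = 3.5e-06). In both, Empty vector replicate 1 was above the other Empty vector libraries, as in the sum.

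Nbv5tr6233718 (LRR kinase At1g68400, 100% unique) had 40.2, 50.5, 52.7 and 54.7 RPKM in Empty vector leaves and 11.7, 11.1, 11.5 and 14.6 in MdMYB68 leaves, a log2 fold change of -2.02 ± 0.14 (adjusted p = 1.9e-07). Here Empty vector replicate 1 was the lowest of its group. Nbv5tr6237151 (At1g18390, 96.8% unique) had 74.2, 52.4, 59.2 and 63.0 RPKM against 14.1, 17.0, 15.8 and 14.6 RPKM, a log2 fold change of -2.02 ± 0.13 (adjusted p = 1.2e-07).

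At4g08850 is MIK2 in Arabidopsis, a receptor of immune peptides, and its 3 contigs did not move together. The contigs Nbv5tr6206628 and Nbv5tr6292351 (both 100% unique) were called lower, at log2 fold changes of -2.48 and -2.51. The third, Nbv5tr6289351 (54.0% unique), which carries the symbol RLP46, was called higher at 3.78 ± 0.78 (adjusted p = 0.0008), but lost the call in 5 of the 8 fits that left out a library, and its value was 4.51 without Empty vector replicate 4. These 3 were named after their values were seen. So was Nbv5tr6287753 (Receptor-like protein kinase 2, 0.358% unique), with the largest fall, 2.41 ± 0.461 to 0.113 ± 0.132 RPKM (SD, n = 4). Its log2 fold change was -4.40 ± 0.87 (adjusted p = 0.00055), and -5.13 without MdMYB68 replicate 3. It was not called in 4 of the 8 fits without a library, nor with uniquely placed reads (adjusted p = 0.12).

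**Figure D4:**
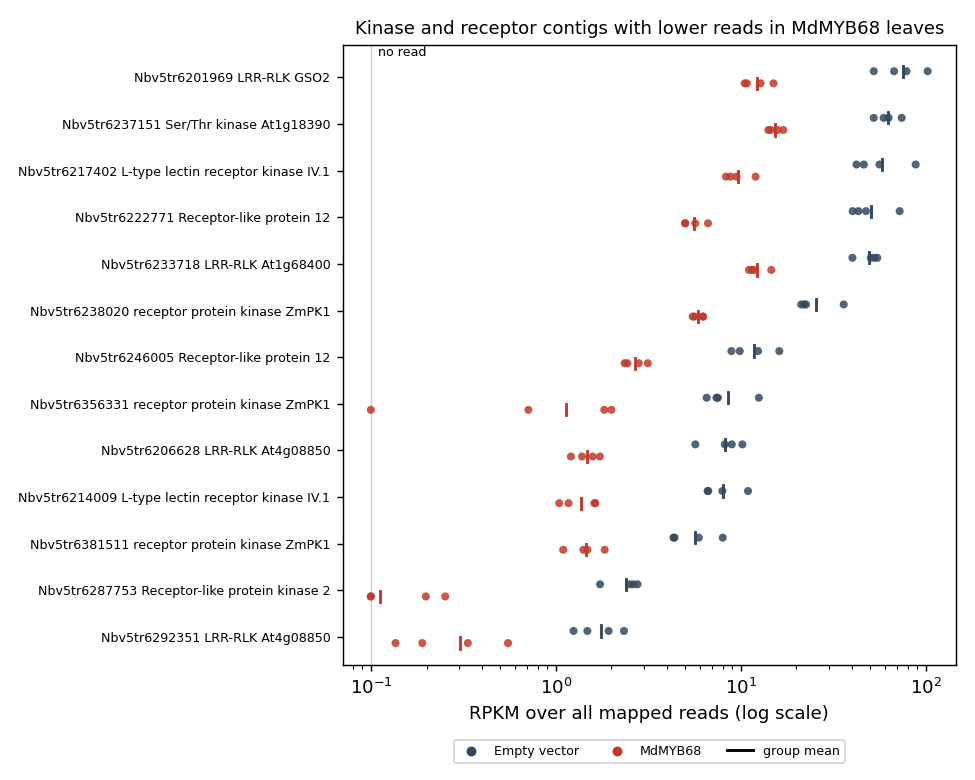
Level of the 13 kinase and receptor contigs with a negative fitted change in each library, in RPKM over all mapped reads on a log scale, with points for Empty vector (dark) and MdMYB68 (red) libraries and bars for the means of 4 libraries. Libraries with no read are drawn on the grey line. No Empty vector library overlaps an MdMYB68 library, and GSO2 at the top lies between 52.4 and 102.5 against 10.5 to 15.1 RPKM.

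The 5 contigs that were not called varied widely among the Empty vector libraries or, in 1 case, among the MdMYB68 libraries. Nbv5tr6300225 (MEE62, 23.4% unique) had 0.615, 0.926, 0.0360 and 0.582 RPKM in Empty vector leaves and 2.89, 2.53, 2.66 and 2.23 in MdMYB68 leaves, a log2 fold change of 2.25 ± 0.60 (adjusted p = 0.0039). It was called without Empty vector replicate 3 (adjusted p = 5.8e-05) and with uniquely placed reads. Nbv5tr6351704 (CBL-interacting kinase 14, 2.78% unique) had 3.95, 0.816, 0 and 1.58 RPKM against 8.05, 5.10, 7.19 and 6.64 RPKM, a log2 fold change of 2.09 ± 0.85 (adjusted p = 0.035) that was 3.07 without Empty vector replicate 1.

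Nbv5tr6265095 (BUD32 homologue, 45.3% unique) and Nbv5tr6251427 (HERK2, a receptor kinase that takes part in cell elongation, 59.2% unique) missed the threshold closely. Their log2 fold changes were 2.19 ± 0.48 and 2.38 ± 0.52 (adjusted p = 0.0011 for each), and both were called without Empty vector replicate 1, where their levels were 0.0567 and 0.0284 RPKM, the lowest of the group. Under TMM and DESeq2 factors these 4 turned negative, Nbv5tr6300225 to -0.70 and -0.68, Nbv5tr6351704 to -0.86 and -0.84, Nbv5tr6265095 to -0.76 and -0.73 and Nbv5tr6251427 to -0.57 and -0.54. The ZmPK1-like contig Nbv5tr6356331 (no uniquely placed read) had 12.5, 7.53, 7.39 and 6.54 RPKM in Empty vector leaves and 1.83, 2.00, 0.711 and 0 in MdMYB68 leaves. Its log2 fold change was -2.90 ± 0.79 (adjusted p = 0.0047), and it was called without MdMYB68 replicate 4, the library at 0 (adjusted p = 2e-04).

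How far single copies can be told apart differed between classes. The median share of uniquely placed reads was 35.3% for the kinase contigs and 77.4% for all listed contigs. It was under 10% in 33 kinase contigs, among them 16 without any such read, and 50% or more in 48. Of these 48, 39 were called higher and 8 lower, with a median log2 ratio of 2.67. When the test was run on uniquely placed reads, 84 of the 120 were called higher and 10 lower, beside 70.5% and 8.68% of all 3305 listed contigs. These shares include contigs without such a read, 16 of the kinase and 398 of all listed contigs. Among the 104 with any, 0 changed sign. The ratio of the sums was smaller with uniquely placed than with total reads for At5g01020 (15.8 against 19.9), PERK (6.60 against 10.5), CRK1 (8.37 against 10.8) and IRE1A (4.72 against 7.03). It was larger for At4g23740 (9.20 against 7.30), GSO1 and PXL2.

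The set of contigs admitted to the table also differed between primary and alternate contigs. The deposited RPKM of a contig is relative to the reads mapped to its own set, and far fewer reads map to the alternate set. On the scale of all mapped reads, the lowest level in the higher group was 6.79 RPKM among the primary and 0.903 among the alternate kinase contigs, and the 35 contigs below 5 RPKM in their higher group were all alternate contigs.

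Neighbours of the kinases in signalling were counted in the same fit. The Casparian strip list was set by annotation words and symbols. It held Casparian strip membrane proteins, peroxidase 64, respiratory burst oxidase E, blue copper proteins and uclacyanins, MYB36 and SGN1. All 33 of its contigs were called higher (median log2 ratio 8.18), beside 83.4% of all listed contigs. All 33 stayed positive under TMM and DESeq2 factors. The symbols RBOHF (another respiratory burst oxidase), ESB1, SGN2 and LOTR1 and the word dirigent were also sought, but no listed contig had them. The list thus covers only a part of the strip genes. Whether its respiratory burst oxidase E and blue copper contigs act in the strip was not tested. The 3 SGN1 contigs share the annotation At5g01020 with the RIPK-like contigs and differ from them by their symbol. Their median log2 ratio of 6.92 is a lower limit, since 2 of the 3 had no Empty vector read. The fitted log2 fold changes of these SGN1 contigs were 8.36, 8.77 and 9.53. The primary one, Nbv5tr6231050 (100% unique), rose from 0.501 RPKM to 219 RPKM. The median of the 10 GSO1 contigs, 5.27, lay between those of the Casparian strip list and of the kinase contigs as a whole. So did those of other kinase groups, among them PXL2 (7.43), the RIPK-like contigs (4.84) and the inactive receptor kinases (3.72). Of 29 protein kinases outside the annotation rule, 28 were called higher and 1 lower, with a median log2 ratio of 2.44. Of 24 protein phosphatases, which remove the phosphate that kinases add, 22 were called higher and 0 lower, with a median of 2.91.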

How the data were processed

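Per the labels and the methods, the authors trimmed the reads and used CLC Genomics Workbench for mapping. The reference was version 5 of the N. benthamiana transcriptome, which has a primary and an alternate set. For each contig and library the authors deposited raw counts (total gene reads and uniquely placed reads) and RPKM values, which are scaled by contig length and by the mapped reads of the set, primary or alternate, that the contig is in. The table holds only contigs past the authors' cut-offs (4-fold, 5 RPKM, false discovery rate under 0.001). Its columns of fold changes and p-values hold the authors' own comparison and were not used. Columns of other samples numbered 0.

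Library totals were recovered from the counts, contig lengths and deposited RPKM, and were 29371282 to 34080202 reads. Floors and intervals (95%, exact Clopper-Pearson) cover counting error only. Total gene reads were tested with edgeR 4.0.16 in R 4.3.3 (quasi-likelihood, normalization factors 1, no covariates), with Benjamini-Hochberg adjustment over 3305 contigs at 0.001. The SE of a log2 fold change is its size divided by the square root of F. The log2 ratio is that of summed reads per library total, with a floor of 3 reads over a group that had none. The code was tested on simulated counts.

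Alternatives were uniquely placed reads, TMM factors, DESeq2 1.42.0, own-set totals, limma 3.58.1 on log2 RPKM with a pseudocount of 1 or 0.1, a filter at a mean of 10 reads, the replicate number as a block, and dropping each library in turn. Replicates are separate pools of plants.

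The contigs and lists were chosen with earlier results of these data known. Classes were set by the first matching word of the annotation. Named were, per class, the 3 of highest level and the 2 of largest ratio among those averaging 10 or more reads per library in the group where they were higher, the 8 of highest level with a negative change, all that were not called, and GSO1 contigs of 2000 bases or more. Summaries by shared annotation (At5g01020, PERK, CRK1 and the like) were made after the values were seen. Reads of the MdMYB68 transgene were not analysed here. Python 3.11.15 and matplotlib 3.10.9 were used for summaries and figures.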

Additional observations from a re-analysis of the deposited data

Results flagged for a closer look

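In 11 of 88 groups of 4 libraries, from the 44 named contigs, 1 library stood apart from the other 3 by Dixon's criterion. For normally distributed values chance alone flags about 1 group in 20, a rate that does not hold near zero. Nbv5tr6254322, Nbv5tr6332501 and Nbv5tr6332500 were flagged because only 1 Empty vector library had any read. The Empty vector groups of Nbv5tr6380275 and Nbv5tr6256750, without a read, could not be flagged. Levels are in RPKM over all mapped reads. Empty vector replicate 1 was the high library in Nbv5tr6254322 (GSO1), at 0.238 with the other 3 at 0, in Nbv5tr6238020, at 36.0 against 21.2 to 22.5, and in Nbv5tr6356331, at 12.5 against 6.54 to 7.53 (the last 2 are ZmPK1-like contigs). Empty vector replicate 2 was high in Nbv5tr6227836, at 3.43 against 1.16 to 1.28. Empty vector replicate 3 was high in Nbv5tr6218415, at 0.515 against 0 to 0.0755. Empty vector replicate 4 was high in Nbv5tr6212922 (annotated TMK1), at 2.18 against 1.61 to 1.65, in the At4g23740 contig Nbv5tr6329299, at 5.68 against 4.73 to 4.89, and in the PXL2 contigs Nbv5tr6332501 and Nbv5tr6332500, at 0.0316 and 0.0527 with the other 3 at 0. MdMYB68 replicate 4 was high in the GSO1 contig Nbv5tr6289899, at 4.55 against 2.74 to 2.89, and in Nbv5tr6218415, at 14.8 against 9.65 to 10.4.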

How the results depend on the processing

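Against 103 kinase contigs called higher, 12 lower, 10 of GSO1 called higher and 13 with a negative change, TMM factors gave 29, 19, 5 and 57, and DESeq2's own size factors 38, 25, 7 and 57. Both scale on the listed contigs, most of which are higher, so their assumption of a mostly unchanged set is not met. Of the 44 contigs of the naming rule, 11 turned negative under TMM and DESeq2 factors: Nbv5tr6246394 to -0.48 and -0.46, Nbv5tr6212922 to -0.52 and -0.50, Nbv5tr6212921 to -0.84 and -0.82, Nbv5tr6289899 to -0.63 and -0.60, Nbv5tr6329299 to -0.17 and -0.14, Nbv5tr6422167 to -0.33 and -0.30, Nbv5tr6233702 to -0.32 and -0.29, Nbv5tr6300225 to -0.70 and -0.68, Nbv5tr6265095 to -0.76 and -0.73, Nbv5tr6351704 to -0.86 and -0.84, and Nbv5tr6251427 to -0.57 and -0.54. Contigs mentioned outside that rule are not counted here, and some of them turned negative too. Uniquely placed reads gave 84 higher, 10 lower and 8 of GSO1, DESeq2 with fixed size factors 105, 12 and 10, limma with a pseudocount of 0.1 96, 12 and 10 and with 1 105, 12 and 10. Own-set totals and a minimum mean of 10 reads left the 4 counts as they were. Leaving out each library gave 97 to 104 higher, 11 to 13 lower and 10 of GSO1, with 0 changes of sign.

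Same-numbered libraries did not deviate together (correlations of -0.069, -0.049, -0.005 and -0.013 over 3272 contigs). This gave no sign of pairing but does not exclude it, since nothing states whether a replicate number marks a shared day or batch. With a replicate block 84 were called higher, 9 lower and 7 of GSO1, and 0 changed sign. Depth limits the ratios of contigs with 0 to 10 reads in the whole Empty vector group, where 1 library can move them. The replicates of a group differed by more than sampling noise (chi-square per contig of 15.5 to 62.1), so no library was counted as a repeat of another.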
